A study of Mus musculus with 24 samples.

Results

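Small RNA of the nucleus accumbens (NAc), a forebrain region of reward and motivation, was compared between stressed female (SF) and stressed male (SM) C57BL/6J mice across miR precursors. The comparison took the 3 SF and the 3 SM libraries out of 12 small RNA libraries and 24 libraries in all, and every precursor listed in the counts was considered, 1180 in number. Both groups had gone through subchronic variable stress (SCVS), a course of foot shock, tail suspension and restraint in alternation. Females were in estrus or proestrus, and the labels put all mice at 9 weeks of age. The study's methods give a slightly lower age, which by their account was reached when SCVS began. Unstressed females (NSF) and unstressed males (NSM), again 3 libraries each, served as the second comparison of the sexes. No transgene, deletion or drug was used. Each library was a pool of 10 NAc punches from 5 mice, so the spread between libraries is the spread between pools and single mice cannot be seen. SF libraries held between 6831869 and 10771409 reads on miRs and SM libraries between 6455641 and 13522287. Among tested precursors averaging 10 or more reads in the stressed libraries, the median SD of the log2 level was 0.131 in SF and 0.153 in SM. No library was left out. In the mRNA of the same pools, Xist averaged 1046 CPM in SF and 3.21 CPM in SM, as the sex labels require, and Ppp1r1b, a marker of striatal projection neurons, averaged 936 and 907 CPM.

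A miR is cut from a hairpin precursor as a short RNA, and it represses mRNAs that pair with its seed, the bases 2 to 8 from its 5′ end. Related miRs that carry one seed can therefore address shared targets. Many brain miRs are made in neurons, whereas miRs of the mir-34b/c and mir-449 genes are best known from ciliated cells and those of the mir-200 genes from epithelia. The counts are given per precursor and cover both arms of a hairpin together, so that arms cannot be told apart.

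The sequences below are the usually named arm of the precursors on which the results turn, with the seed in capitals. They come from RefSeq (GRCm38.p6), in which 415 of the 500 tested precursors and 24 of the 26 called ones had an entry. The first set shares the seed of the mir-34 family, to which mir-34c also belongs by name.
miR-34a-5p: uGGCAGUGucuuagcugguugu
miR-34b-5p: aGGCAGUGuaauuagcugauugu
miR-449a-5p: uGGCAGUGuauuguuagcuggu
miR-449c-5p: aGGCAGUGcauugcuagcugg
The mir-200 genes make 2 seeds, shown because members of both were higher in females.
miR-200b-3p: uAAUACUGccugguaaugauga
miR-200c-3p: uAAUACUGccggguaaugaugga
miR-429-3p: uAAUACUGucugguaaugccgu
miR-200a-3p: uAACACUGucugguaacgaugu
miR-141-3p: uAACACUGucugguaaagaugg
The mir-10 pair shares a seed although the sexes differed in only 1 of its precursors by the thresholds used.
miR-10b-5p: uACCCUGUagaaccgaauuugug
miR-10a-5p: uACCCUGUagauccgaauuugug
Further arms belong to a precursor called higher, to both called X-linked precursors, and to mir-206, whose sex difference was found only without stress.
miR-216a-5p: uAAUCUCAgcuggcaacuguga
miR-363-3p: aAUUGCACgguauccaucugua
miR-1912-3p: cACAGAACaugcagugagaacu
miR-206-3p: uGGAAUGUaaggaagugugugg

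Among precursors higher in stressed females were several of epithelial and ciliated cells, mir-34c, mir-34b, mir-200b and mir-200a, and further mir-375 and mir-10b. Lower in females were 7 precursors, mostly with few reads, among them mir-363 and mir-1912 of the X chromosome. No difference passed correction over all precursors. Of the 1180 precursors, 500 passed a filter on low counts (above 5 reads in 80% or more of some group's libraries) and were tested with voom and limma. A precursor was called at an unadjusted p below 0.05 together with a 1.3-fold or larger difference, the thresholds that the study used. By that rule 26 of 500 were called (5.2%), 19 higher in SF (3.8%) and 7 lower (1.4%). Without the fold threshold 40 had an unadjusted p under 0.05, which was 23 higher and 17 lower. None had a Benjamini-Hochberg adjusted p under 0.05 by limma, where the smallest was 0.454. The edgeR quasi-likelihood test likewise gave 0 at that adjusted threshold with 38 under an unadjusted 0.05, and DESeq2 gave 0 with 24. Under quantile normalization the calls split into 17 higher and 12 lower. The median difference over all 500 was 0.01 on the log2 scale and the median standard error 0.140.

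**Figure D1:**
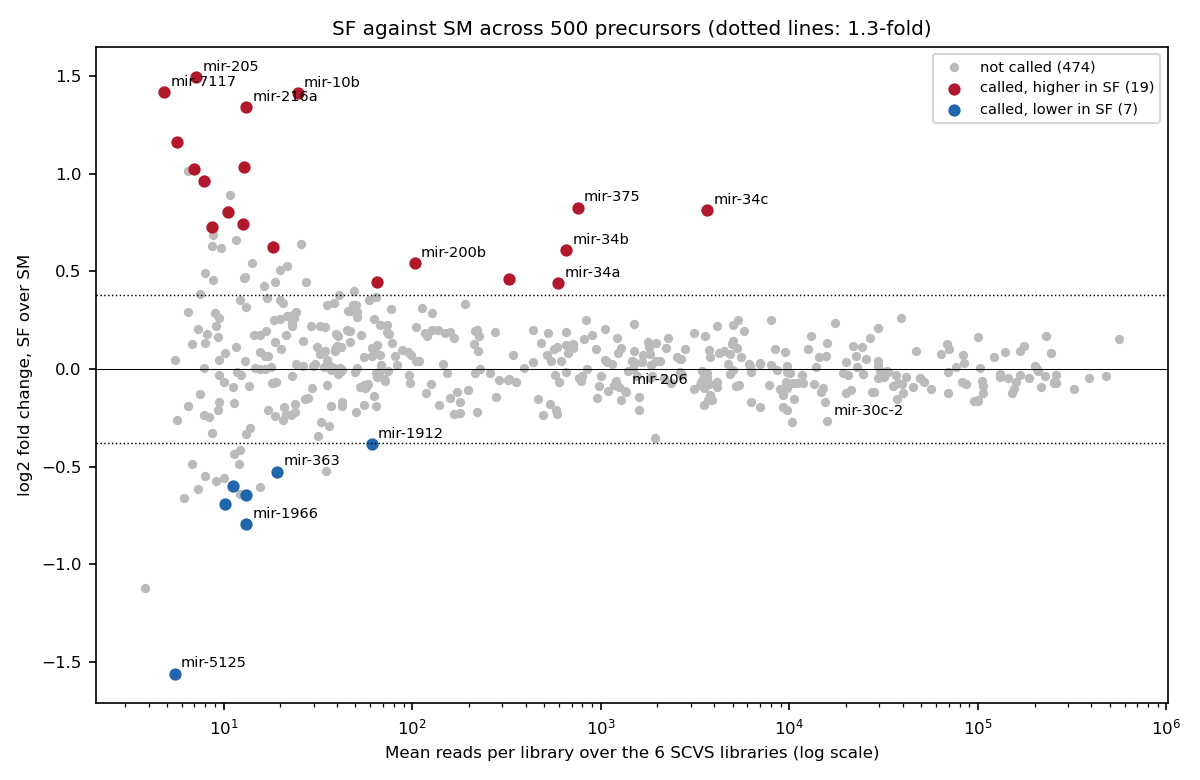
Log2 fold change of SF over SM against the mean reads per library over the 6 stressed libraries (log axis), 1 point per tested precursor. Called precursors are red (19 higher in SF) or blue (7 lower), dotted lines mark 1.3-fold, and mir-34c and mir-375 are the called precursors with the most reads.

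mir-34c had the most reads of the called precursors. It lies between genes on chromosome 9 of NCBIM37 from 50911139 to 50911215, minus strand. It had 318, 681 and 487 CPM (counts per library total, scaled by TMM) in the 3 SF libraries and 204, 355 and 262 CPM in the 3 SM libraries. All SF libraries but the lowest lay above every SM library, so the groups overlapped. Its level was 1.76-fold higher in SF, a log2 fold change of 0.81 ± 0.25 (SE, unadjusted p = 0.00502, adjusted p = 0.502, limma). mir-34b, its neighbor from 50911667 to 50911750, had 54.4, 110 and 84.3 CPM in SF and 44.5, 67.5 and 43.8 CPM in SM. These groups overlapped in the same way, with the second library highest in each, and the log2 fold change was 0.61 ± 0.24 (SE, unadjusted p = 0.0208, adjusted p = 0.573, limma). mir-34a, encoded elsewhere on chromosome 4 and named here for its seed, had 62.3, 87.6 and 66.4 CPM in SF against 54.5, 42.8 and 64.2 CPM in SM (log2 fold change 0.44, standard error 0.20, unadjusted p = 0.0409, adjusted p = 0.573, limma). Its lowest SF library was below its highest SM library.

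The other precursors of this seed went another way. mir-449a, a precursor of multiciliated cells, had between 9.47 and 14.6 CPM in SF and between 11.3 and 14.1 CPM in SM, a log2 difference of -0.08 ± 0.17 (SE). mir-449c had a log2 difference of -0.57 ± 0.33 (SE) on a mean of 9.17 reads, and neither was called. The call of mir-34c was kept in all 24 alternative fits, with log2 fold changes between 0.55 and 1.10. That of mir-34b was lost without SF library 2 (0.38), SF library 3 (0.54), SM library 1 (0.48) or SM library 3 (0.52), and that of mir-34a was kept in 14 of 24, with values between 0.27 and 0.56 and losses without SF library 2 or 3, SM library 1 or 2, NSF library 1, or NSM library 1 or 3.

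mir-375, a precursor of endocrine and pituitary cells, lies between genes on chromosome 1. It had 66.8, 137 and 102 CPM in SF and 40.7, 70.0 and 56.9 CPM in SM. The second SM library was above the first SF library, and all other SF values were above all SM values. The log2 fold change was 0.83 ± 0.25 (SE, unadjusted p = 0.00441, adjusted p = 0.502, limma), and it stayed between 0.58 and 1.10 and called in all 24 alternatives. The 3 libraries of SF followed one order in mir-34c, mir-34b and mir-375, with the second highest and the first lowest. The hypothalamic peptide mRNAs Avp, Oxt, Pmch and Hcrt, looked up later for tissue beside the NAc, were near 0, with sums of at most 0.240 CPM in SF and 0.111 CPM in SM.

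The mir-200 precursors differed less but more evenly. mir-200b, in an intron of Ttll10 on chromosome 4 (155429790 to 155429859, minus strand), had 12.3, 11.7 and 13.2 CPM in SF and 8.92, 8.90 and 7.56 CPM in SM, so that the groups did not overlap. Its log2 fold change was 0.54 ± 0.16 (SE, unadjusted p = 0.00435, adjusted p = 0.502, limma), and between 0.47 and 0.58 in the alternatives, all 24 of which called it. mir-200a, in the same intron, had 34.8, 35.4 and 44.6 CPM against 23.4, 32.1 and 28.4 CPM, again without overlap (log2 fold change 0.46, standard error 0.19, unadjusted p = 0.0253, adjusted p = 0.573, limma). Its call was lost without SF library 3 (0.32) or SM library 1 (0.32). mir-429, the third precursor of that cluster, had 19.3, 23.2 and 22.7 CPM in SF and 16.6, 18.8 and 15.7 CPM in SM. Here too every SF library was above every SM library, but the log2 difference of 0.33 (standard error 0.19, unadjusted p = 0.100, limma) was not called. mir-200c and mir-141 on chromosome 6 had log2 differences of 0.34 and 0.36 on means of 20.7 and 12.2 reads and were not called. Across all 500 precursors SF lay wholly above SM in 38 (7.6%) and wholly below in 27 (5.4%), and among the 26 called in 13 and 7.

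**Figure D2:**
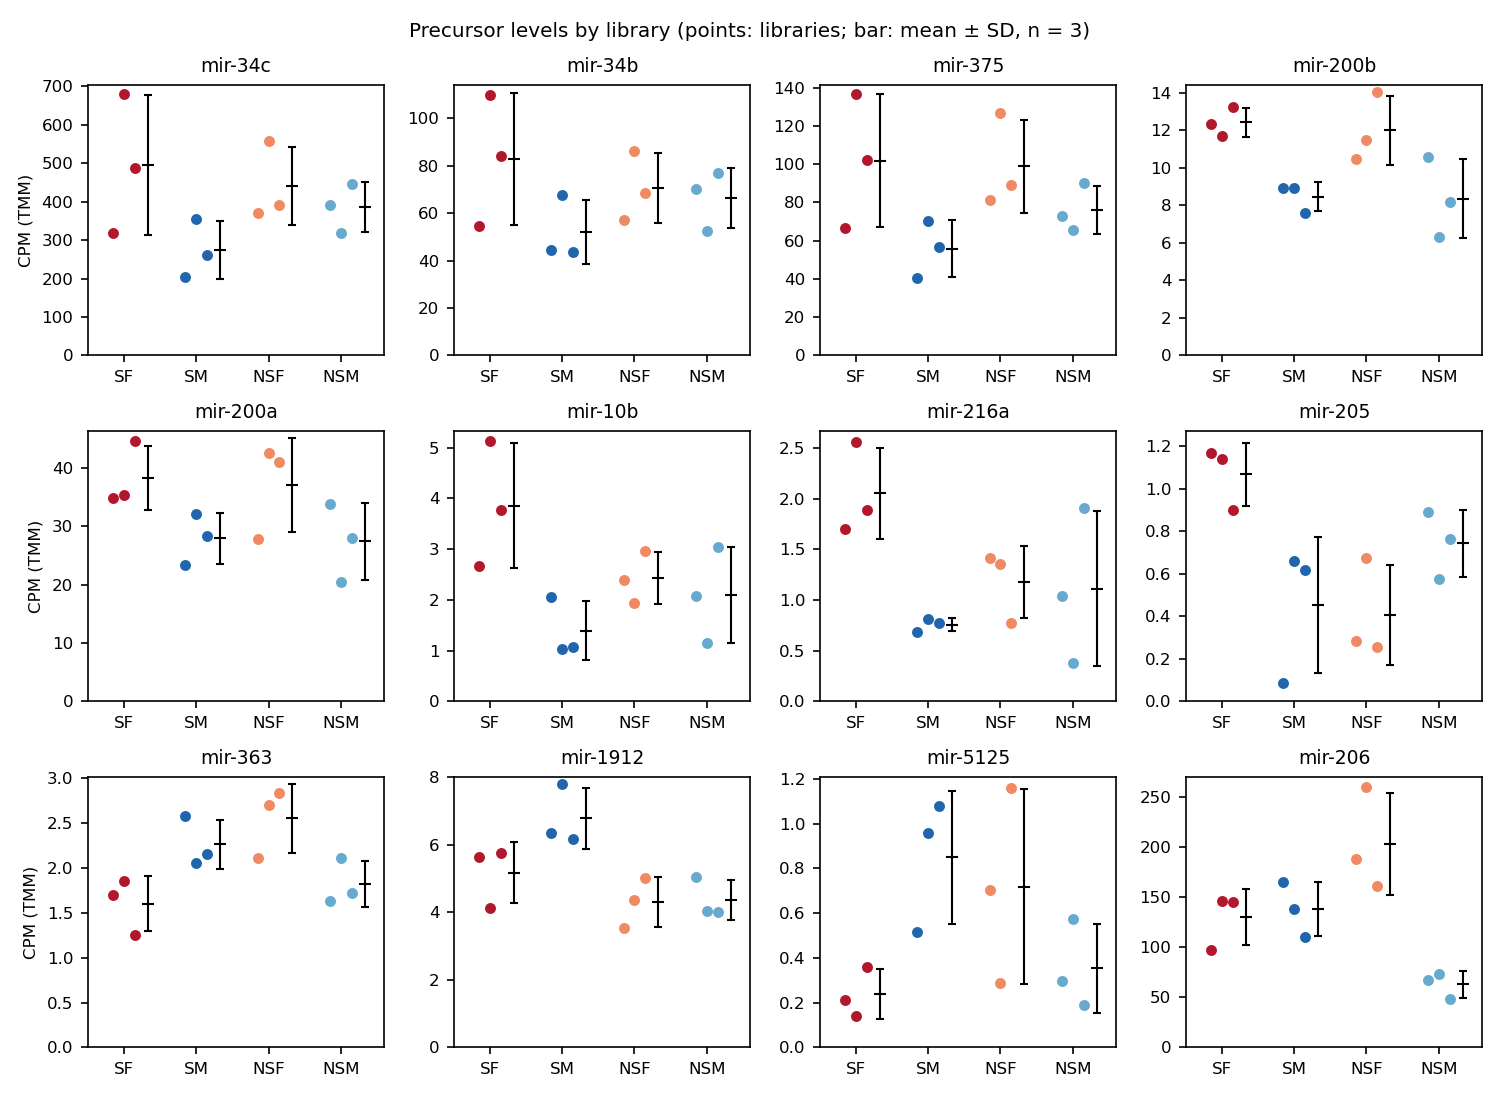
CPM of 12 precursors in each library (points, by group) with the mean and SD of 3 libraries (bars), each panel with its own axis from 0. SF lies above SM without overlap in mir-200b, mir-200a, mir-10b, mir-216a and mir-205 and below it in mir-363, mir-1912 and mir-5125, while mir-206 separates only NSF from NSM.

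These precursors formed most of a list of 13 miRs of choroid plexus and ciliated or other epithelial cells. Of its 12 tested members 5 were called higher in SF (mir-34b, mir-34c, mir-200a, mir-200b and mir-205) and none lower. The list was chosen with earlier results of these data known, so its counts are a description only. mir-34b and mir-34c are neighbors, and mir-200a and mir-200b lie in the same intron, so these calls are not independent. The median log2 difference of the 12 was 0.35, against 0.01 over all 500 precursors, of which 3.8% were called higher. Its summed level was 975 to 1438 CPM in SF and 700 to 978 CPM in SM. The defining choroid plexus precursors mir-204 and mir-211 had log2 differences of 0.22 and 0.19 and were not called. Between NSF and NSM they had -0.24 and -0.34, with NSF wholly below NSM. Both passed the thresholds for the difference of the 2 sex contrasts (0.47 and 0.53, both adjusted p = 0.420, limma), as did 6.8% of all 500. mir-205, an epithelial precursor, had 1.17, 1.14 and 0.899 CPM in SF and 0.0858, 0.662 and 0.617 CPM in SM, from only 1 to 11 reads per library, without overlap. Without SM library 1, the lowest, its log2 fold change of 1.50 became 0.65 and the call was lost.

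Marker mRNAs of such cells were looked up in the mRNA of the same pools, with the miR values already known. The 4 ependymal mRNAs Foxj1, Ccdc153, Tmem212 and Dynlrb2, of the ciliated lining of the ventricles, summed to 11.1, 19.5 and 15.3 CPM in SF and 7.20, 10.5 and 7.82 CPM in SM. The groups did not overlap, and the libraries of each group had the order seen for mir-34c. Foxj1, the regulator of motile cilia, was called higher in SF (log2 fold change 0.80, standard error 0.22, unadjusted p = 0.00264, adjusted p = 0.107, limma), as were Ccdc153 (0.89) and Tmem212 (1.02), where 5.55% of 18593 tested mRNAs were called. Dynlrb2 had 0.70 and was not called. The choroid plexus mRNAs Ttr, Kl and Folr1 summed to between 9.68 and 12.2 CPM in SF and between 9.59 and 12.7 CPM in SM. Ttr, the defining one, was near 0 with 0.741 ± 0.299 CPM in SF and 1.25 ± 1.19 CPM in SM (SD, n = 3). Fewer cells of a type and less RNA per cell cannot be told apart in such pools, and the part of the ependymal mRNAs in the miR differences was not tested.

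**Figure D3:**
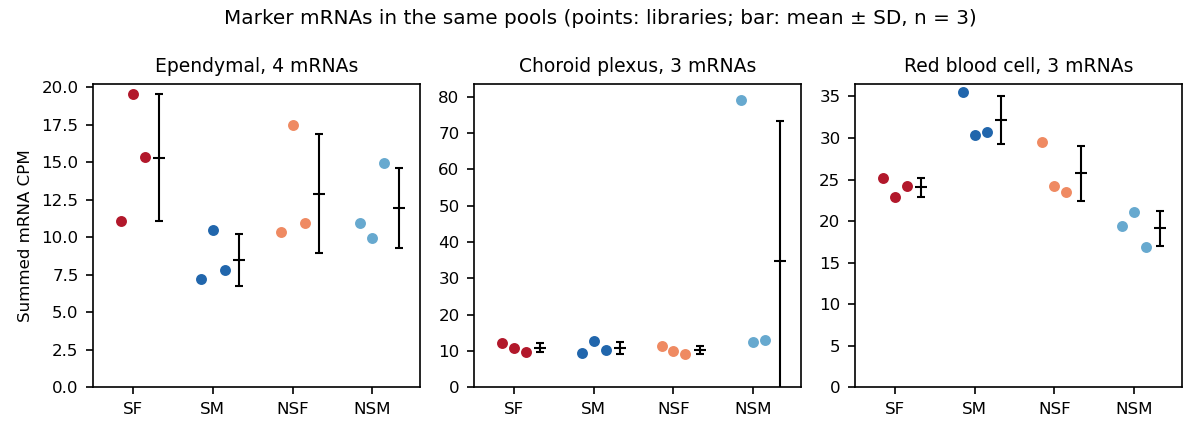
Summed CPM of marker mRNAs in each library of the same pools (points, by group) with the mean and SD of 3 libraries (bars). The ependymal sum was 11.1 to 19.5 CPM in SF and 7.20 to 10.5 CPM in SM, the red blood cell sum 22.8 to 25.1 and 30.4 to 35.5 CPM, and the choroid plexus sums overlapped between SF and SM.

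Among precursors with fewer reads, mir-10b had the smallest p of all. It lies in an intron of Hoxd3 and Hoxd4 on chromosome 2 (74564127 to 74564194, plus strand), and both hosts were at 0 in the mRNA of SF and SM. Its levels were 2.66, 5.12 and 3.77 CPM in SF and 2.06, 1.03 and 1.08 CPM in SM, or 25, 36 and 42 reads against 24, 14 and 7. The groups did not overlap, and the level was 2.66-fold higher in SF (log2 fold change 1.41, standard error 0.34, unadjusted p = 0.000908, adjusted p = 0.454, limma). mir-10a, with the same seed and a mean of 526 reads, had a log2 difference of 0.18 ± 0.13 (SE). mir-216a, a pancreatic precursor, had 1.70, 2.56 and 1.89 CPM in SF and 0.686, 0.809 and 0.771 CPM in SM (log2 fold change 1.34, standard error 0.37, unadjusted p = 0.00249, adjusted p = 0.502, limma). All SF libraries were above all SM libraries, on 5 to 21 reads each. mir-217, its neighbor on chromosome 11, did not overlap either, with a log2 difference of 0.89 (standard error 0.45), and was not called. The calls of mir-10b and mir-216a were kept in all 23 alternatives that tested them. Of the stressed groups only SF had more than 5 reads of mir-216a in every library.

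The remaining precursors called higher rested on few reads. mir-3095 in an intron of Lpar1 had a log2 fold change of 1.03 and lost its call without SM library 1 (0.53) or SF library 1 (0.88). mir-3103 (0.75), mir-6934 (0.81), mir-466c-1 (0.63) and mir-669f (0.45) had means between 10.5 and 64.8 reads. mir-3103 lost its call without SF library 3 (0.68) or SM library 1 (0.57), and mir-669f without SF library 3 (0.41) or SM library 3 (0.27). mir-6934 lost it without SF library 1 (0.64), SF library 3 (0.79), SM library 1 (0.80) or SM library 2 (0.45), and mir-466c-1 without SF library 1 (0.56), SF library 2 (0.54) or SM library 2 (0.30). mir-208a, of heart muscle and in an intron of Myh6, had 0.73 on a mean of 8.67 reads and kept its call in 9 of 22 alternatives, with 0.51 as the lowest value without SF library 1. The last 4, mir-6976, mir-6933, mir-5134 and mir-7117, had means of 4.83 to 7.83 reads and log2 fold changes from 0.96 to 1.42. mir-6976 lost its call and fell from 1.16 to 0.51 without SM library 2. mir-5134 lost its call without SF library 1 or 2 or SM library 1 or 2 (values with a library left out between 0.77 and 1.11). mir-6933 (0.79 to 1.23) and mir-7117 (1.18 to 1.81) lost theirs without SF library 2 or SM library 1 or 3. In all, 7 of the 26 called precursors had a mean under 10 reads (26.9%), as did 8.2% of those tested.

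Of the 7 precursors called lower in females, both X-linked ones had the most reads. mir-1912 lies in an intron of Htr2c, the gene of a serotonin receptor (143443984 to 143444070, plus strand). It had 5.64, 4.13 and 5.75 CPM in SF and 6.35, 7.80 and 6.17 CPM in SM, which did not overlap (log2 fold change -0.38, standard error 0.17, unadjusted p = 0.0433, adjusted p = 0.573, limma). Without SF library 2 or SM library 2 the value was -0.27 or -0.26 and the call was lost, as it was without NSF library 2 or NSM library 2, which enter the filter, the scaling and the estimate of spread. The mRNA of Htr2c averaged 196 ± 6.88 CPM in SF and 230 ± 25.8 CPM in SM (SD, n = 3), a log2 difference of -0.22 ± 0.08 (SE, unadjusted p = 0.0127, adjusted p = 0.175, limma), short of 1.3-fold. Of the other Htr2c precursors mir-1264 had the most reads, with a mean of 15535 and a log2 difference of -0.17 ± 0.09 (SE). mir-448 had a log2 difference of -0.22, mir-1298 of -0.06 and mir-764 of 0.00. None of them was called.

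mir-363 of the X-linked mir-106a cluster had 1.70, 1.85 and 1.26 CPM in SF and 2.57, 2.06 and 2.16 CPM in SM, again without overlap. Its log2 fold change was -0.52 ± 0.23 (SE, unadjusted p = 0.0404, adjusted p = 0.573, limma), and the call was lost without SF library 3 (-0.36), SM library 1 (-0.43) or SM library 3 (-0.53). Its seed is shared by mir-25, mir-32, mir-92a-1, mir-92a-2 and mir-92b, whose log2 differences were between -0.02 and 0.31 with none called. mir-5125, in an intron of Srrm2, had 2, 1 and 4 reads in SF and 6, 13 and 7 reads in SM. Its log2 fold change was -1.56 (standard error 0.52, unadjusted p = 0.00904, adjusted p = 0.573, limma). The call was kept in all 22 alternatives that tested it. Of the stressed groups only SM, where mir-5125 was higher, had more than 5 reads in every library. Its passing of the filter is thus tied to the difference. mir-1966 (-0.79), mir-6959 (-0.69), mir-21c (-0.64) and mir-7042 (-0.60) had means of 10.2 to 13.2 reads and did not overlap between the groups. mir-1966 lost its call without SF library 2 (-0.59) or SM library 2 (-0.53), and mir-7042 without SF library 1 (-0.58), SF library 3 (-0.55) or SM library 3 (-0.49). mir-21c lost it without SF library 2 (-0.66), SF library 3 (-0.47), SM library 2 (-0.64) or SM library 3 (-0.54), and mir-6959 without any one of 5 stressed libraries (between -0.57 and -0.71), all but SF library 2.

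Among precursors with many reads, small differences passed p but not the fold threshold. mir-30c-1 had 942, 869 and 985 CPM in SF and 1216, 1161 and 994 CPM in SM. mir-30c-2, from another locus that gives the same mature arm, had 1456, 1338 and 1504 CPM against 1865, 1768 and 1538 CPM. Neither overlapped, with log2 differences of -0.27 and -0.26 (standard errors 0.10 and 0.10), and since both give the same arm they are not independent. mir-30a and mir-384 of the same seed had -0.09 and -0.10. mir-487b, in the imprinted cluster of chromosome 12, had 611, 589 and 579 CPM in SF and 716, 642 and 640 CPM in SM (log2 difference -0.17, standard error 0.07, unadjusted p = 0.0213, adjusted p = 0.573, limma). mir-144, of red blood cells, had 187, 157 and 161 CPM in SF and 258, 207 and 182 CPM in SM, a log2 difference of -0.35 ± 0.14 (SE, unadjusted p = 0.0248, adjusted p = 0.573, limma). The red blood cell mRNAs Hbb-b1, Hba-a1 and Alas2 summed to 22.8 to 25.1 CPM in SF and 30.4 to 35.5 CPM in SM without overlap, with log2 differences of -0.37, -0.46 and -0.86. The part of blood in the value of mir-144 was not tested.

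X-linked precursors had a median difference close to that of all precursors. Of 87 X-linked precursors 43 were tested, and 2 were called lower and none higher, where 1.4% of all 500 were called lower and 3.8% higher. Their median log2 difference was -0.02, beside 0.01 over all 500, and it became 0.00 (0.0050) without SM library 1. SF lay wholly above SM in 3 of the 43 and wholly below in 4, where 7.6% and 5.4% of all 500 did. let-7f-2 in an intron of Huwe1, the X-linked precursor with the most reads, had a log2 difference of -0.10 ± 0.08 (SE), with the sign lost under quantile normalization. Of 7 X-linked host genes tested as mRNA, which were Htr2c, Clcn5, Huwe1, Chm, Gabre, Tmem164 and Fgf13, 1 was called, where 5.55% of 18593 tested mRNAs were. It was Gabre, with 1.73 ± 0.585 CPM in SF and 0.986 ± 0.128 CPM in SM (SD, n = 3, unadjusted p = 0.0182, adjusted p = 0.202, limma). SF library 2 was highest with 2.41 CPM, against 1.33 and 1.46 CPM in the other SF libraries.

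The counts of the further lists are to be read against the 3.8% of all 500 called higher and the 1.4% called lower. Neuronal precursors differed little between stressed females and males. Of 17 tested precursors of neurons, mir-124, mir-9 and mir-128 included, none was called, and their log2 differences were between -0.17 and 0.16. None of the 14 let-7 precursors was called (median -0.08), nor any of the 4 mir-29 precursors (median -0.06) or of 49 precursors of the Dlk1-Dio3 imprinted cluster (median -0.01). Of 32 tested precursors of the Sfmbt2 cluster families on chromosome 2, 2 were called higher, mir-466c-1 and mir-669f, with a median of 0.11. Members of these families are nearly identical copies, so their counts are uncertain. Of 8 muscle precursors 1 was called higher (mir-208a, median of the list -0.14), and of 8 precursors of vessel walls and fibroblasts 1 (mir-10b, median -0.05). None was called of 3 precursors of the mir-183 cluster (median 0.30), 5 of microglia and white blood cells (0.01), 2 of oligodendrocytes (-0.07), the 1 tested erythroid precursor mir-144, and 3 of the X-linked testis cluster (0.13). The 2 of oligodendrocytes were mir-138-1 and mir-138-2, so that list rested on mir-138 alone and gives little reading of the cell type. The listed mir-219 and mir-338 precursors had at most 1 read over the 6 stressed libraries and were not tested. The erythroid mir-451a and the white blood cell mir-142 had 0 reads there, although the paper lists miR-451a as upregulated in stressed males. The handling of reads that match more than 1 precursor is not given. Counts near 0 therefore do not show that these miRs were absent. mir-155, an inflammation precursor, had 5.96, 3.98 and 4.31 CPM in SF and 3.86, 3.46 and 3.55 CPM in SM without overlap, and with a log2 difference of 0.38 (unadjusted p = 0.0812, limma) it was not called. The 5 precursors with the most reads had log2 differences of 0.15 (let-7b), -0.04 (mir-128-1), -0.05 (mir-29b-2), -0.10 (let-7f-2) and -0.07 (mir-124-1), and none was called.

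**Figure D4:**
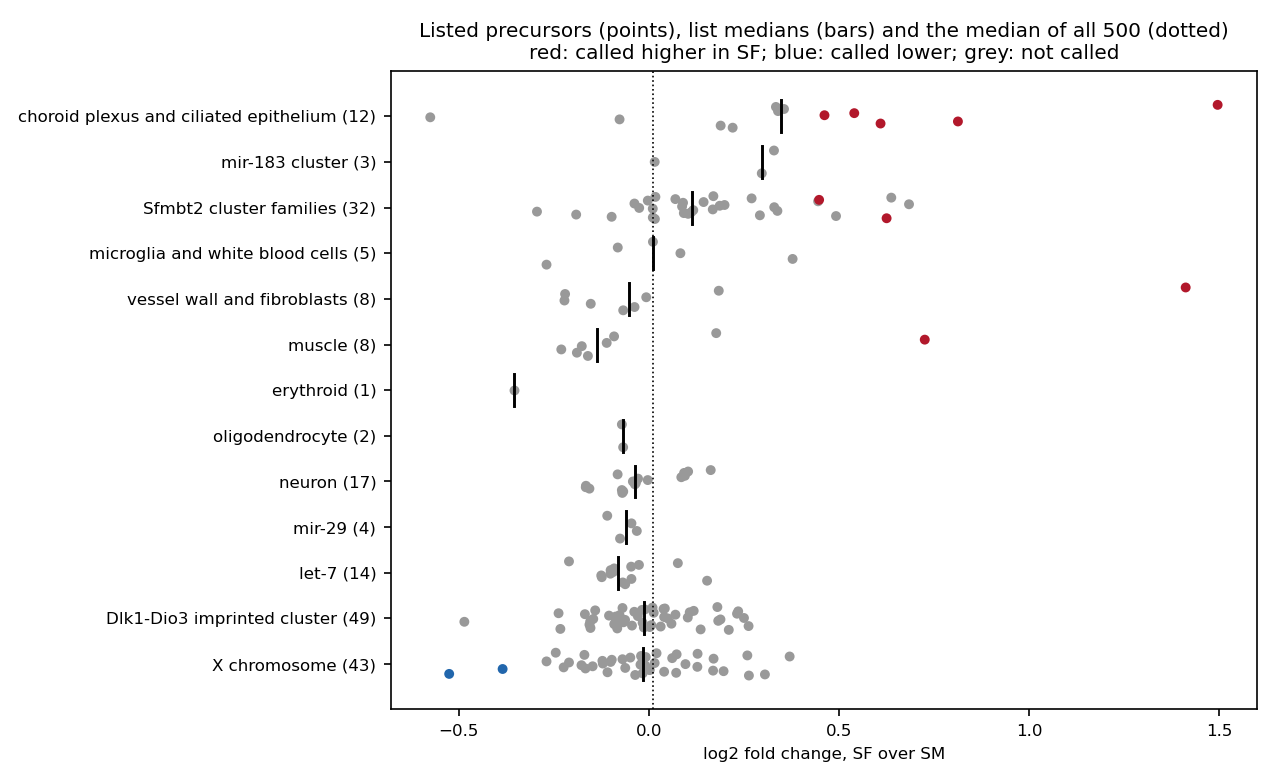
Log2 fold changes of SF over SM for the tested precursors of 13 lists (points, numbers tested in parentheses), with each list's median (bar) and the median of all 500 (dotted line). The epithelial list sits highest with a median of 0.35 and 5 members called, and the X chromosome has 2 members called lower.

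Of the 26 called precursors 13 lie in an intron and 5 in an exon of a gene on the same strand, 6 between genes, and 2 were not located. For 13 of them a host mRNA was tested in the same pools. Host and precursor differed in the same direction in 9 of the 13. No host was called, where 5.55% of 18593 tested mRNAs were. Of the hosts, 5 had an unadjusted p under 0.05 (limma). Htr2c and Pgs1 differed in the direction of their precursors, and Fam65a, Lpar1 and Sbf1 in the opposite direction. Log2 differences of the hosts were between -0.22 (Htr2c) and 0.18. The precursors were chosen for a difference of at least 1.3-fold and the hosts were not, so the ranges cannot be compared.

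To see whether these sex differences were also found without stress, NSF were compared with NSM in the same fit, a contrast with no library in common. There 38 of 500 precursors were called (7.6%), 29 higher in females (5.8%) and 9 lower (1.8%), and 5 had an adjusted p under 0.05, which were mir-206, mir-487b, mir-341, mir-151 and mir-5099. Called in both contrasts and higher in females were mir-200b, mir-200a and mir-6934, which was 11.5% of the stressed and 7.89% of the unstressed calls. Without stress the log2 fold changes were 0.51 for mir-200b and 0.44 for mir-200a, and the differences between their contrasts were 0.03 and 0.02. mir-6959 was called in opposite directions, with -0.69 under stress and 0.75 without. Of the 26 called in stressed mice 14 had the same sign in unstressed mice (53.8%), as did 290 of all 500 (58%).

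mir-34c had a log2 difference of 0.19 between NSF and NSM and mir-375 of 0.38, neither called. The difference between the contrasts was 0.62 for mir-34c (unadjusted p = 0.0964, adjusted p = 0.647, limma) and 0.45 for mir-375 (unadjusted p = 0.224, adjusted p = 0.732, limma), so a dependence on stress was not shown. Across all 500 precursors 34 differed between the contrasts by the thresholds used (6.8%), and 1 had an adjusted p under 0.05. That was mir-206, a precursor of skeletal muscle. It had 97.6, 147 and 146 CPM in SF and 165, 139 and 111 CPM in SM, which overlapped widely (log2 difference -0.11, standard error 0.20). In NSF it had 188, 260 and 162 CPM and in NSM 67.8, 73.4 and 48.0 CPM, with no overlap and a log2 fold change of 1.69. The difference of the contrasts was -1.80 with an adjusted p of 0.0131 (limma). mir-5099 was of the same kind, with -0.07 under stress and 0.85 without, but the adjusted p of the difference was 0.133 (limma). mir-487b and mir-341 were lower in females in both contrasts, by -0.17 and -0.16 under stress and by -0.35 and -0.37 without, with no overlap in either. Those miRs are named for their adjusted p in unstressed mice.

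**Figure D5:**
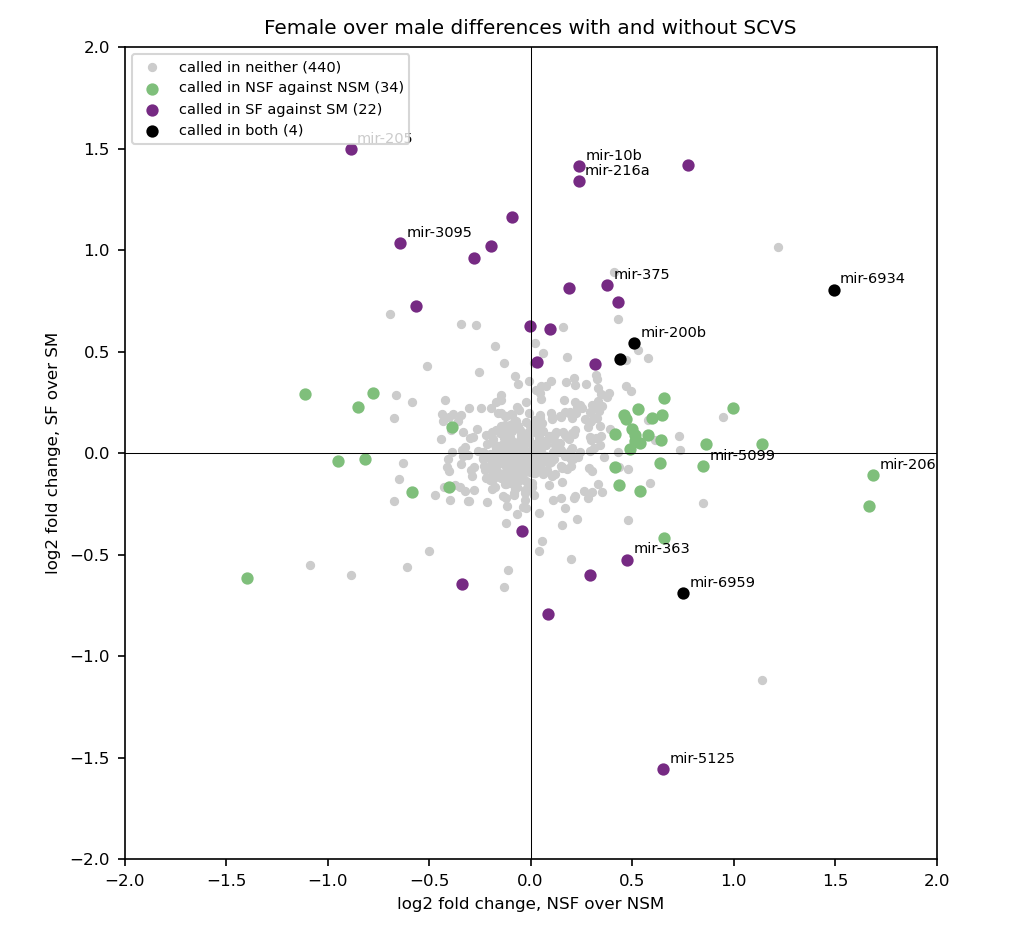
Log2 fold change of SF over SM (vertical) against that of NSF over NSM (horizontal) for 500 precursors. Black points were called in both (4), purple only in the stressed (22), green only in the unstressed contrast (34), and mir-206 lies far right at a vertical value of -0.11.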

How the data were processed

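Per the labels and the methods, small RNA was sequenced single-end on one lane, trimmed, cleared of reads under the length limit, aligned with Bowtie to mm9 and counted with HTSeq on miRBase. The authors deposited raw counts per precursor, without normalization, and the handling of reads with several matches is not given in the sources used here. mRNA of the same pools was aligned with TopHat2 to NCBIM37, and its deposited values are raw counts per gene.

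Groups came from the sample titles. Features above 5 reads in 80% or more of some group's libraries were kept, TMM-scaled (edgeR 4.0.16) and fitted with voom and limma 3.58.1 in R 4.3.3 with 4 group means over 12 libraries. Called means unadjusted p under 0.05 and at least 1.3-fold, and adjusted p follow Benjamini and Hochberg across every tested feature. The study states its filter for mRNA, and it was used for both. Standard errors are those of the moderated fit. CPM are per library after TMM scaling. Precursors were placed on NCBIM37 by exact blastn 2.17.0 matches of RefSeq hairpins, with genes from GENCODE, which placed 949 of 1180.

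Named were precursors with an adjusted p under 0.05, the 10 largest changes each way among those averaging 10 or more reads, the 5 smallest p each way, called X-linked and listed ones, the 5 with the most reads, and those also called without stress or in the difference. Members and lists were chosen with earlier results of these data known, and other named miRs after their values were seen. An exact permutation test of one precursor could not go below 0.10 with 3 against 3 pools. Nothing says whether pools shared cages or days, so p-values measure the spread between these pools. Other fits used quasi-likelihood in edgeR, DESeq2 1.42.0, different scalings, filters, weights, a replicate block, the 6 libraries alone and leaving out each library. The fits were tested on simulated data. A list of neighboring-tissue marker mRNAs is not reported here.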

Additional observations from a re-analysis of the deposited data

Results flagged for a closer look

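For 8 precursors named by the rules above, the sex difference in stressed mice differed from that in unstressed mice at an unadjusted p under 0.05 (limma). For none was the adjusted p, which lay between 0.42 and 0.54, under 0.05. Over all 500 tested precursors 44 had an unadjusted p under 0.05 for this difference (limma). All but mir-144 met the naming rule on this difference, and each of them met another naming rule as well. All 8 were picked for their values in SF against SM, which enter this difference. Their passing is therefore no independent result. The difference of the 2 contrasts, in log2 units with stressed minus unstressed, was 1.17 for mir-10b, which was 0.24 without stress and 1.41 under stress. It was 2.38 for mir-205, 1.29 for mir-208a and 1.67 for mir-3095, whose values without stress were negative (-0.89, -0.56 and -0.64) and under stress positive. It was -0.51 for mir-144, -0.999 for mir-363, -2.21 for mir-5125 and -1.44 for mir-6959, which were lower in females under stress and not without it. Except for mir-144, with a mean of 1942 reads, these precursors had means of 5.50 to 24.7 reads per stressed library.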

How the results depend on the processing

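The count of precursors that differed between SF and SM, 26, was 10 by DESeq2, 48 of 896 tested with a filter of 1 read in any library, 9 of 389 with 10 reads in every library, 40 without a fold threshold and 0 by an adjusted p under 0.05 with 1.3-fold. Leaving out each library gave 16 (without SM replicate 1) to 30, of which 13 to 26 were among the 26. The NSF against NSM count, 38, was 23 by DESeq2, 60 with the 1-read filter, 81 without a fold threshold and 2 by an adjusted p under 0.05 with 1.3-fold (5 had that adjusted p at any fold), and 29 to 45 with a library left out. The count for the difference of the contrasts, 34, was 21, 60, 18 with 10 reads in every library and 1 by an adjusted p under 0.05 with 1.3-fold, and 25 to 38 with a library left out. The median of the X-linked precursors, -0.016, was -0.043 under RLE scaling, -0.049 under quantile normalization and -0.052 to 0.0050 with a library left out. Over the named precursors 597 of the alternative values kept direction and side of the threshold, 91 lost the call, 8 gained it and 7 changed sign. These were mir-128-1 (0.059 without SM replicate 2, 0.015 without SM replicate 3, -0.18 to 0.059 with any library left out), mir-29b-2 (0.0030 with quality weights, 0.0047 without SF replicate 2, 0.012 without SM replicate 1, -0.12 to 0.012 with any left out), and under quantile normalization mir-124-1 (0.0026) and let-7f-2 (3.55e-15, a numerical 0). The host mRNA Huwe1 also changed sign (0.0087 by library size). The cause was not tested. Deviations of same-numbered SF and SM libraries correlated at 0.0587, 0.0253 and 0.136, and those of differently numbered ones at -0.158 to 0.104. Same-numbered NSF and NSM libraries correlated at -0.0131, -0.0427 and 0.109. These values do not settle whether the numbers pair the libraries, and the labels name no pairing. The reported fit has no replicate block. With the replicate number as a block 25 precursors were called with none at an adjusted p under 0.05, and with the 6 libraries alone 20, of which mir-34c (0.00018), mir-375 (0.00041) and mir-34b (0.0385) had an adjusted p under 0.05 (limma). Depth limits precursors with few reads most.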
